A study of Homo sapiens with 46 samples.

Results

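Human chromosome 19 carries dense clusters of zinc finger genes, and their transcripts were followed here in DLD-1, a long-established cell line from a human colorectal adenocarcinoma. The genes were chosen by position and name alone, as rows of the count table whose first exon lies on chromosome 19 and whose symbol is ZNF followed by a number and at most 1 letter. This gave 265 of the 62756 genes in the table, under 263 distinct symbols, and 169 of the 265 had enough counts to be tested. The other zinc finger genes named this way number 298, and chromosome 19 holds 1863 further genes with a symbol. The parental group is untagged DLD-1. In the derived lines an auxin-inducible degron (AID) tag sits at the N terminus of endogenous lamin A/C (LAC), lamin B1 (LB1) or lamin B2 (LB2), so that auxin triggers loss of the tagged lamin protein. Each line, the parental line included, received 1 mM auxin for 0, 16 or 96 h, which gives 12 groups and 46 libraries. The medium of every culture was DMEM plus fetal bovine serum, with auxin added from a solution in DMSO. LB1 at 0 h and LB2 at 96 h have 3 libraries and all other groups have 4. Each library came from its own well of a plate, so p-values measure the spread between wells. Whether a derived line grew from 1 cell is not given in the sources used here, and with 1 line per lamin the tag, the lamin and the history of the line cannot be told apart in comparisons with the parental line.

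Most of these genes encode proteins with tandem C2H2 zinc fingers, each finger holding a zinc ion and reading a few DNA bases. Many also carry a KRAB domain, which recruits the corepressor TRIM28 and through it the histone methyltransferase SETDB1 and HP1 proteins, and so places H3K9me3 on transposable elements. The family grew by tandem duplication, so that neighbours are often close relatives, and the 3′ ends of zinc finger genes are themselves known to carry H3K9me3.

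Library totals ran from 479446 to 37309421 counts with a median of 11533218, and the zinc finger genes took between 0.275% and 0.363% of each. Levels are given below as counts per 1000000 (CPM) on library sizes scaled by the trimmed mean of M values (TMM). In 6 libraries the total was under 5000000. Replicate 1 of LAC at 0 h (3318819 counts) and replicate 1 of LB2 at 0 h (1894447 counts) lay at 1 end of a range in base composition. Across 11749 genes the Spearman correlation of a gene's deviation from its mean with its GC content was 0.69 and 0.61, the highest of the 46 libraries. The next were 0.57, 0.52 and 0.50, and the lowest was -0.52. In LAC the other 0 h libraries were at -0.18, 0.50 and 0.37, and those at 96 h at 0.10, -0.52, -0.41 and -0.24. For several results below, the value without replicate 1 of LAC or of LB2 at 0 h is given as well. For fits with 1 library left out, counts over all genes are not given. Their numbers of calls therefore have no background to be set against. LMNA was at 435 ± 230 CPM (SD, n = 4) in LAC at 0 h against 738 ± 111 (n = 4) in the parental line, LMNB1 at 94.7 ± 7.31 (n = 3) in LB1 against 147 ± 8.92 (n = 4), and LMNB2 at 143 ± 79.2 (n = 4) in LB2 against 283 ± 32.5 (n = 4). The tag acts on the protein, so these transcript levels do not measure its loss. Colorectal epithelial markers summed to 6542 to 10076 CPM in the group means with CDX2 at 69.3 to 219 CPM, whereas CDX1 was at 0 in 40 of 46 libraries. Markers of other cell types were low: the fibroblast list summed to 0.791 to 3.07 CPM, nearly all of it COL1A1, with COL1A2 and DCN at 0 in all 46 libraries. The leukocyte list summed to 1.14 to 3.39 CPM, mostly CD14, and the endothelial list to 3.82 to 10.2 CPM, mostly VWF.

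In the parental line 161 of the 265 genes reached 1 CPM over its pooled libraries and 98 reached 10 CPM. In LAC, LB1 and LB2 the numbers reaching 1 CPM were 156, 153 and 157, and 149 genes did so in all 4 lines. At the other end, 81 genes stayed under 0.1 CPM in every line and 20 had no count in any library. Of the 247 genes annotated as protein coding in GENCODE 29, 166 were tested and 13 had no count. Of the 16 annotated pseudogenes, 3 were tested and 7 had no count. Among the 96 genes that were not tested the highest level was 0.471 CPM, for ZNF155 in the line where its pooled level was highest.

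Levels differed along the chromosome. Genes whose starts lie less than 1 Mb apart were joined into clusters, and 9 clusters of at least 5 genes held all but 12 of them. The cluster from 19.7 to 24.1 Mb, called C4 here and home of ZNF91, a gene whose product represses SVA retrotransposons, held 42 genes. Of these only 11 were tested and 12 had no count, and the median parental level was 0.00386 CPM. The cluster nearest the end of the long arm, C9 from 55.5 to 58.5 Mb, held 61 genes, of which 43 were tested, with a median of 8.52 CPM. In C2, from 7.1 to 9.8 Mb, the median of 16 genes was 22.0 CPM. The most abundant transcript per kilobase of exon in the untreated parental line was ZNF121 in C2, at 37.4 ± 3.06 CPM per kb (SD, n = 4). ZNF460 followed at 19.2 ± 2.41 and ZNF146, made up almost wholly of zinc fingers, at 18.2 ± 1.33, and these neighbours in the order lie within each other's spread. ZNF581 was at 15.8 ± 0.598 and ZNF587B at 11.5 ± 1.46 CPM per kb. Of the exon bases of ZNF581, 24.9% are also annotated to another gene on its strand.

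**Figure D1:**
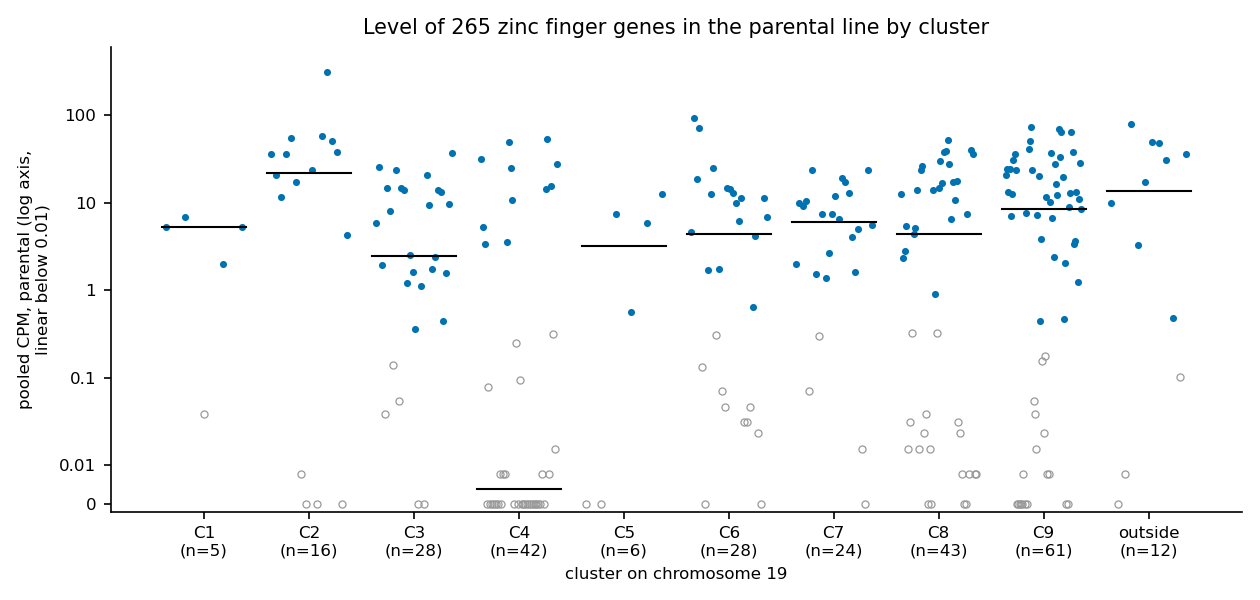
Pooled CPM of each of the 265 zinc finger genes in the 12 parental libraries (vertical log axis, linear below 0.01) by cluster along chromosome 19 (horizontal), with filled points for tested genes, open points for untested genes and a bar at the median of each cluster. The 42 genes of C4 separate into 11 tested genes and a floor of genes at or near 0, whereas C2 has its median at 22.0 CPM.

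Some genes that the parental line expressed were almost absent from a derived line. A gene was called near-silent in a line when its pooled CPM at 16 and 96 h was at most 5% of the parental value, with at least 0.5 CPM in the parental line. By this rule 5 of 164 zinc finger genes (3.05%) were near-silent in LB1, 2 (1.22%) in LAC and 1 (0.610%) in LB2, and over all 17913 genes at this parental level the shares were 0.19%, 0.0447% and 0.0614%. The 8 cases involve 7 genes. In the opposite direction, near-silent in the parental line and at least 0.5 CPM in a derived line, there was no zinc finger gene, against 1, 7 and 3 genes of any kind for LAC, LB1 and LB2 (0.00552%, 0.0372% and 0.0162%). The rule used only libraries with auxin, so the 0 h libraries give a separate test: edgeR's quasi-likelihood test over 21484 genes called 7 of the 8 cases lower than parental before any auxin. These are bulk libraries, in which fewer expressing cells and less RNA per cell cannot be told apart.

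**Figure D2:**
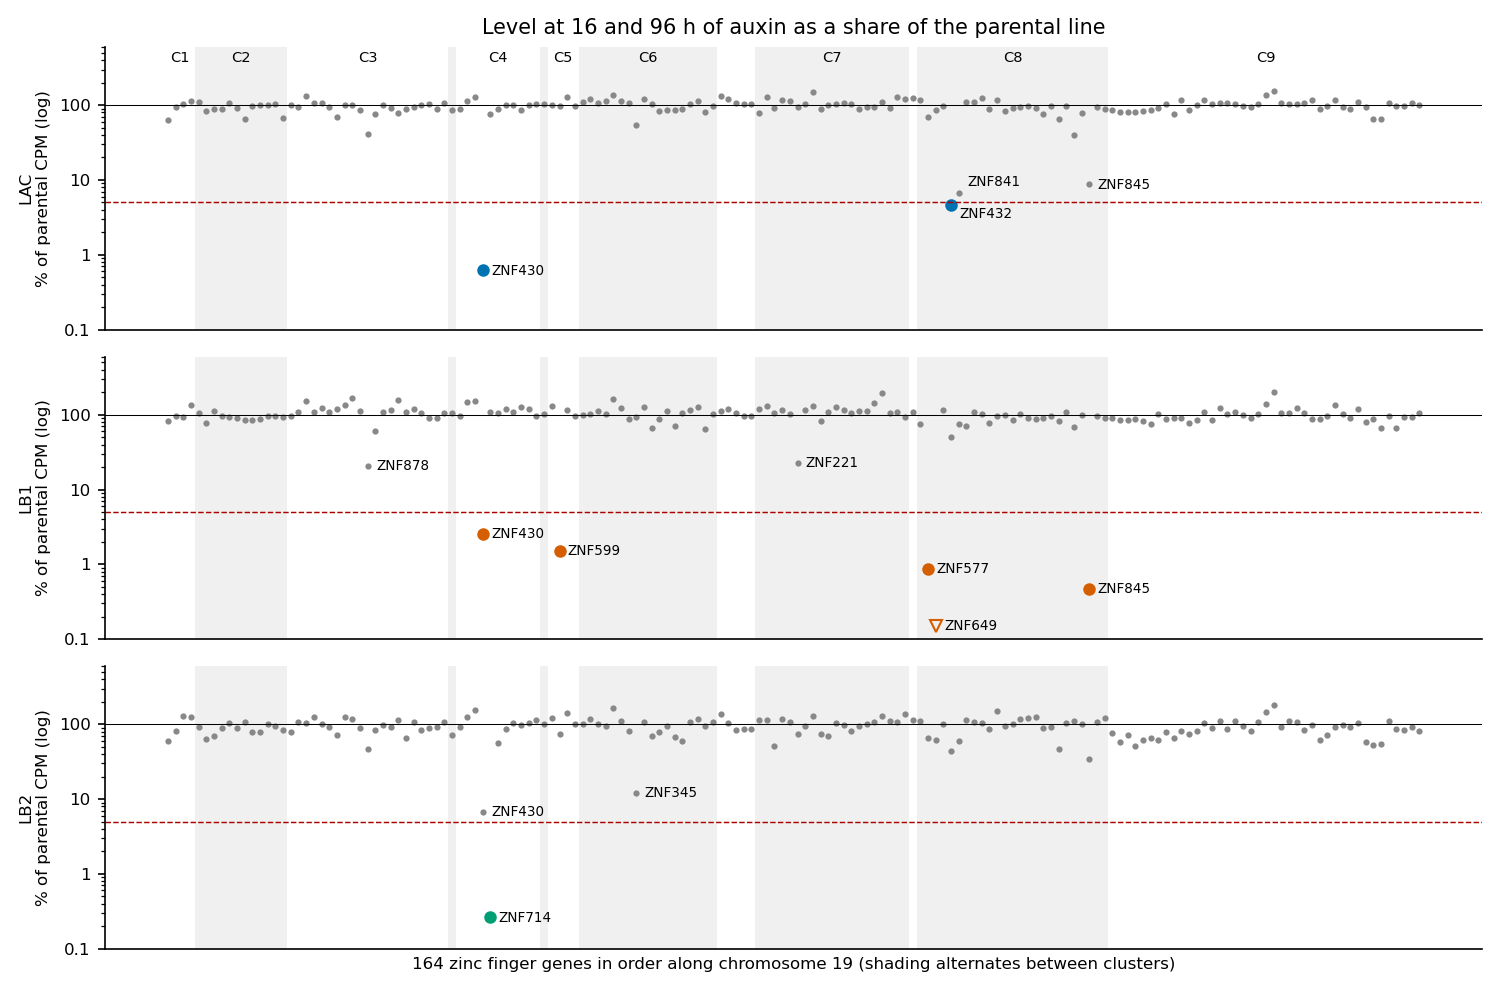
Pooled CPM at 16 and 96 h in LAC, LB1 and LB2 as a percentage of the parental CPM (vertical log axes) for 164 zinc finger genes in their order along chromosome 19 (horizontal). Coloured points lie at or under 5% (dashed line), the open triangle marks ZNF649 with no count in LB1, and most genes lie near 100%, with medians of 98.6%, 102% and 95.7%.

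ZNF430 and ZNF714 are neighbours on the plus strand of C4, at chr19:21020634-21060050 and chr19:21082159-21125270 (GRCh38), and ZNF431 follows at chr19:21142024-21196053. All encode C2H2 zinc finger proteins. Their promoters (250 bases before to 50 after the start, RefSeq, GRCh38.p14, plus strand, CpG in capitals) are shown because these close relatives behaved differently in the same cells. They lie at chr19:21020407-21020706, chr19:21081953-21082252 and chr19:21141790-21142089.
ZNF430: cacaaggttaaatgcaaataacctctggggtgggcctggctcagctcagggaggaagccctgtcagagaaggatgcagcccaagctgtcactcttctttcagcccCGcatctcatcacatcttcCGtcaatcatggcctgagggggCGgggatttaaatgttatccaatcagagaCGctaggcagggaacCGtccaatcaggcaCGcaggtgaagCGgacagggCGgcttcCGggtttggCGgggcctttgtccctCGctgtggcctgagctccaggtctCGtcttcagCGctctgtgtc
ZNF714: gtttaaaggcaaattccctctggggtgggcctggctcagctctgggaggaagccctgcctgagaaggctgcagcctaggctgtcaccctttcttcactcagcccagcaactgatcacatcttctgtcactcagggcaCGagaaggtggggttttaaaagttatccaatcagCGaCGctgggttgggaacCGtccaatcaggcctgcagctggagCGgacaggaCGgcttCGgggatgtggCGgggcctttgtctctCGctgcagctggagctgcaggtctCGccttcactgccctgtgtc
ZNF431: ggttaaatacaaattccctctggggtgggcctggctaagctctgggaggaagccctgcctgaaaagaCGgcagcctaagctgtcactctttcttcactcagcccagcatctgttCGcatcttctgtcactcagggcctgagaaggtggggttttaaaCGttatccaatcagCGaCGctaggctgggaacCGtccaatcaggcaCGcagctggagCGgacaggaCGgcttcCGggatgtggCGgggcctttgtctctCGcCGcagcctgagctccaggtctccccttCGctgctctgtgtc
In global alignment the ZNF714 promoter matched that of ZNF431 at 91.0% of columns and that of ZNF430 at 82.0%, where the median over all 23220 pairs of the 216 promoters found was 50.5%. They hold 13, 10 and 14 CpG, against a median of 20 over these promoters and 14 over all 35116 in the table.

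ZNF714 was one of the better expressed genes of its cluster in every line but LB2. Before auxin it was at 52.4, 49.3, 47.7 and 40.4 CPM in the parental libraries, at 52.4, 41.6, 33.5 and 32.4 in LAC and at 47.2, 56.4 and 55.8 in LB1. All 4 LB2 libraries at 0 h had no count, against 1460 counts in the parental group. LB2 lies below every library of the other lines, and the level was at least 531-fold lower than parental, taking 3 counts over the LB2 group as the floor (edgeR adjusted p = 2.84e-21). With auxin LB2 held 14 counts in all: 0.0745, 0, 4.35 and 0.203 CPM at 16 h and 0, 0 and 0.319 CPM at 96 h. The value of 4.35 CPM is 2 counts in the smallest library. ZNF431, the next gene, was still expressed in LB2, at 14.4, 10.9, 14.5 and 12.7 CPM at 0 h against 26.9, 22.5, 22.1 and 20.3 in the parental line. These groups do not overlap, and ZNF431 was lower in LB2 by 0.83 ± 0.17 on the log2 scale (SE, edgeR adjusted p = 0.000915).

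ZNF430 was lower in all 3 derived lines, the only zinc finger gene of the chromosome called in all 3 at 0 h. The parental libraries stood at 5.24, 5.12, 3.77 and 4.35 CPM. LAC had no count in any of 4 libraries at 0 h, at least 79.4-fold lower (edgeR adjusted p = 1.56e-08), and 3 counts over its 12 libraries. LB1 held 3 counts at 0 h, 52.0-fold lower with a counting interval of 17.4 to 255 (edgeR adjusted p = 5.24e-06). In LB2 the values were 1.11, 0.186, 0.552 and 0 CPM, 14.3-fold lower with an interval of 7.75 to 29.3 (edgeR adjusted p = 7.32e-05). Every derived library lies under every parental one at 0 h. With auxin LB2 was at 6.76% of parental, just outside the near-silent rule. These comparisons share the parental libraries. The intervals here and below are exact at 95% and cover counting error only. ZNF714 was not called in LAC (log2 difference of -0.27, edgeR adjusted p = 0.357) or LB1 (0.15, adjusted p = 0.823).

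In LB1 3 of the near-silent genes lie in C8, from 51.6 to 53.6 Mb. ZNF577 and ZNF649, on the minus strand at chr19:51804816-51890950 and chr19:51889235-51905040, overlap at their ends. ZNF649, a KRAB zinc finger gene, was at 3.17, 3.47, 1.61 and 1.69 CPM in the parental libraries at 0 h and had no count in any of the 11 LB1 libraries. This was at least 30.3-fold lower at 0 h (edgeR adjusted p = 2.57e-07) and at least 104-fold lower with auxin. ZNF577 was at 2.56, 3.88, 2.51 and 1.93 CPM in the parental libraries, had no count in LB1 at 0 h and 2 counts over the 8 libraries with auxin. It was at least 32.5-fold lower at 0 h (edgeR adjusted p = 1.03e-07). LAC and LB2 libraries held both genes: ZNF649 was at 1.94, 3.07, 1.11 and 2.26 CPM in LAC and at 0.554, 2.91, 1.93 and 0.764 in LB2. ZNF613, the next gene of the family on that side, was at 5.40, 1.99 and 5.34 CPM in LB1 and at 4.02, 4.04, 4.13 and 5.56 in the parental line, so that the groups overlap (log2 difference of 0.17, edgeR adjusted p = 0.871).

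ZNF845, at chr19:53333749-53356906 on the plus strand, was lower in LB1 and in LAC. Parental libraries stood at 6.34, 5.86, 8.97 and 4.59 CPM at 0 h. LB1 had 0, 0 and 0.184 CPM, which is 2 counts and 104-fold lower with an interval of 28.4 to 865 (edgeR adjusted p = 1.25e-09). LAC had 0.647, 1.33, 1.27 and 1.66 CPM, between LB1 and the parental line with no overlap on either side, and was lower than parental by 2.27 ± 0.38 on the log2 scale (adjusted p = 3.25e-05). In LAC it then fell further, to 0.420, 0.559, 0.509 and 0.440 CPM at 96 h, which lie under all 4 LAC values at 0 h (log2 change of -1.45 ± 0.43, edgeR adjusted p = 0.0164). LB2 was at 2.77, 3.28, 2.58 and 4.33 CPM, under every parental library, but the log2 difference of -1.0 ± 0.36 did not pass the test (adjusted p = 0.0758). The neighbours ZNF765 and ZNF761 kept 37.5 and 33.1 CPM in LB1 with auxin, against 39.5 and 36.1 in the parental line.

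In LAC a pair of overlapping genes was near-silent or close to it. ZNF432 and ZNF841, on the minus strand at chr19:52031378-52095738 and chr19:52064465-52095765, share 199 exon bases, so their counts are not fully separate. Their 5′ ends lie together in the deposited annotation, whereas the RefSeq promoter of ZNF432 lies 46900 bases from that start, at chr19:52048789-52049088, and is not shown. ZNF432 was at 5.00, 3.71, 3.41 and 3.38 CPM in the parental line at 0 h and at 0, 0.370, 0.159 and 0.151 in LAC, 15.1-fold lower with an interval of 8.53 to 29.3 (log2 difference of -3.95 ± 0.48, edgeR adjusted p = 6.05e-08). ZNF841 was at 5.61, 7.51, 5.56 and 4.59 CPM in the parental line and at 0.647, 0.148, 0.477 and 0.980 in LAC (log2 difference of -3.56 ± 0.47, adjusted p = 3.92e-07). All LAC values of both genes lie under all parental ones. At 16 and 96 h ZNF432 was at 4.61% of parental and ZNF841 at 6.80%, on either side of the rule. An unnamed gene on this stretch, ENSG00000260160.1, was also lower in LAC (edgeR adjusted p = 0.000426). ZNF616, within 100 kb, was not called in LAC (log2 difference of -0.10, adjusted p = 0.827), and ZNF841 was lower in LB2 by 1.18 ± 0.39 (adjusted p = 0.0490, a call lost under 11 of 15 alternatives). The promoters of ZNF841 (minus strand, chr19:52095716-52096015) and of ZNF845 (plus strand, chr19:53333499-53333798) are shown, with CpG in capitals, because they stand for the C8 genes lowered in LAC.
ZNF841: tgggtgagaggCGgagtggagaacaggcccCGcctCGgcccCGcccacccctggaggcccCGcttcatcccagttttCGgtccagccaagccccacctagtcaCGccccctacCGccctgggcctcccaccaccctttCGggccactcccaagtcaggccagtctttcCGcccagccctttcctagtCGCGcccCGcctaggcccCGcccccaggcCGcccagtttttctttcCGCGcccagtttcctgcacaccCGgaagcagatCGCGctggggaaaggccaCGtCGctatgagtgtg
ZNF845: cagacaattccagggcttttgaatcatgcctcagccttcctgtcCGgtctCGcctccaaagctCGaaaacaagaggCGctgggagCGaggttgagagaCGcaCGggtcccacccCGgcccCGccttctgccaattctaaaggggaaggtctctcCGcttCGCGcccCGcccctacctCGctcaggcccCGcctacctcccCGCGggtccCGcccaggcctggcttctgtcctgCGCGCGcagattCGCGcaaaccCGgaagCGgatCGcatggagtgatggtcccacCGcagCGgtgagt
They hold 22 and 28 CpG, above the median of 20, whereas ZNF430 and ZNF714 lie below it. ZNF841 was outside the near-silent rule, and ZNF845 met it in LB1 and not in LAC. With ZNF845 above and ZNF430 and ZNF714 below, promoters of near-silent genes lie on both sides of the family's median.

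ZNF599, in C5 on the minus strand at chr19:34758073-34773229, was the remaining case in LB1 and rests on few counts. It was at 0.122, 0.743, 0.179 and 0.242 CPM in the parental libraries at 0 h, 12 counts in all, and LB1 had none there and 1 count in its 8 libraries with auxin. The difference at 0 h, at least 4.33-fold, did not pass the test (edgeR adjusted p = 0.0541). The values next outside the rule were 6.80% for ZNF841 and 8.71% for ZNF845 in LAC, 20.8% for ZNF878 in LB1, and 6.76% for ZNF430 and 12.0% for ZNF345 in LB2.

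**Figure D3:**
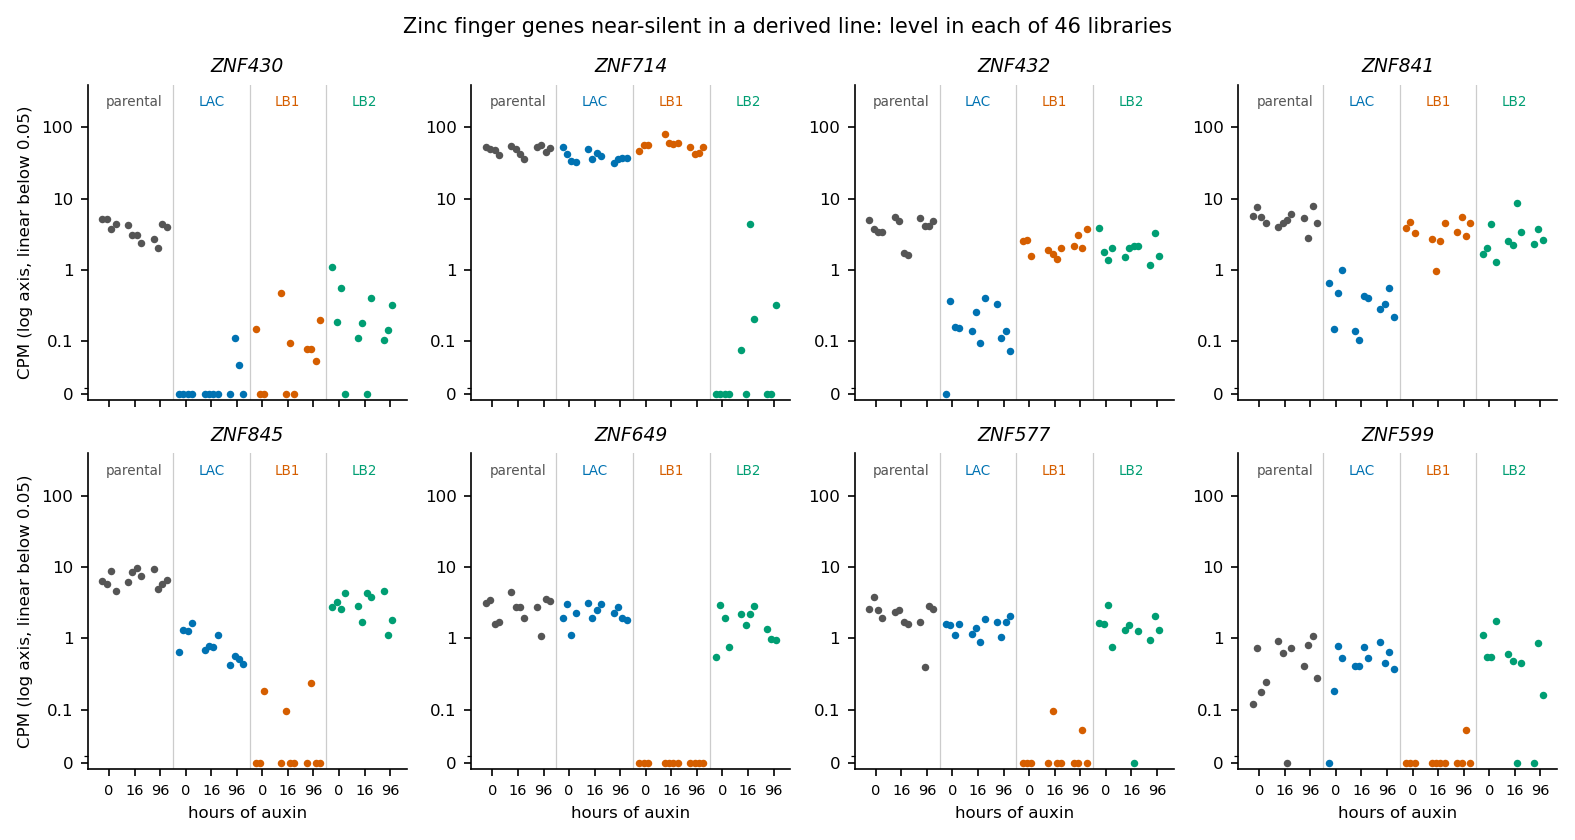
CPM (vertical axes, log scale above 0.05 and linear below) of 8 zinc finger genes in each of the 46 libraries, by line (colour) and hours of auxin (horizontal). ZNF649 is at 0 in all 11 LB1 libraries and ZNF714 at 0 in 7 of 11 LB2 libraries, whereas ZNF430 is low in all 3 derived lines.

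Over all tested genes of the family, the untreated LAC line differed from the parental line in 26 of 169 genes, 16 higher and 10 lower, at an edgeR adjusted p under 0.05, against 15.8% of all 21484 genes tested (8.71% higher and 7.08% lower). The median log2 difference was 0.09 over the 169 genes and -0.06 over all genes. The split depended on scaling: it was 13 higher and 13 lower with DESeq2's size factors, and 25 higher and 8 lower once each library's trend with GC content and length was removed. Over all genes the same settings gave 1583 higher and 1905 lower, and 2480 higher and 1821 lower. C9 stood to 1 side, with 38 of its 43 tested genes above 0, 8 called higher, none lower and a median of 0.41. Without the GC and length trend 35 of 43 were above 0 and the median was 0.29. Among the called genes ZNF296 of C7 had the largest positive difference, with 15.2, 7.06, 12.9 and 10.9 CPM in LAC against 4.02, 2.72, 5.02 and 5.32 in the parental line. The groups do not overlap (log2 difference of 1.43 ± 0.31, edgeR adjusted p = 0.000891). ZNF324, a KRAB gene at the end of the chromosome, was at 48.6, 37.0, 48.0 and 44.8 against 21.0, 23.7, 28.3 and 17.2 CPM, again with no overlap (0.97 ± 0.14, adjusted p = 2.44e-06). On its strand ZNF324 shares 1420 exon bases, 25.1% of its own, with other annotation, so its counts may not be fully separate. The pseudogene ZNF702P was lower, at 0.324, 4.62, 3.97 and 3.39 against 8.65, 12.0, 14.3 and 8.94 CPM (-1.63 ± 0.30, adjusted p = 0.000167), its lowest value being in replicate 1. Without that replicate the difference was -1.41 (adjusted p = 0.000451), and 28 genes were called, 19 higher and 9 lower.

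LB1 at 0 h differed in 8 of 169 genes, 2 higher and 6 lower, where 4.05% of all genes were called (1.62% higher and 2.43% lower). Besides the 4 near-silent genes, ZNF875 was lower, at 4.81, 2.66 and 2.30 CPM against 9.99, 7.68, 8.61 and 9.42 in the parental line with no overlap (log2 difference of -1.33 ± 0.29, edgeR adjusted p = 0.00186). ZNF814 was at 24.2, 15.3 and 23.6 against 28.8, 34.8, 42.7 and 44.9 CPM, also without overlap (-0.76 ± 0.14, adjusted p = 0.000257). Higher were ZNF441, at 11.7, 8.63 and 12.5 against 6.58, 6.69, 5.20 and 5.56 CPM (0.91 ± 0.24, adjusted p = 0.0191), and ZNF235, at 6.49, 1.33 and 7.36 against 2.92, 3.22, 3.05 and 1.45 (1.11 ± 0.31, adjusted p = 0.0239). These calls were lost under 3 and 4 of 14 alternatives. The ZNF235 groups overlap through replicate 2 of LB1, a library under 5000000 counts. Without replicate 3 of LB1 5 genes were called, all lower.

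LB2 at 0 h differed in 14 genes, 1 higher and 13 lower, where 8.21% of all genes were called (3.91% higher and 4.3% lower). ZNF468 was the gene called higher, at 37.7, 44.5, 50.9 and 52.0 CPM against 36.9, 32.9, 38.0 and 25.4 in the parental line, with 1 parental library inside the LB2 range (log2 difference of 0.48 ± 0.14, edgeR adjusted p = 0.0216). That call was lost under 6 of 15 alternatives. ZNF875 was lower here too, at 2.22, 4.58, 5.98 and 4.08 CPM with no overlap (-0.95 ± 0.26, adjusted p = 0.0132), and ZNF345 was lower by 1.83 ± 0.61 (adjusted p = 0.0494). Without replicate 1 of LB2, a library of high correlation with GC content, 22 genes were called, 4 higher and 18 lower, and without replicate 2 of the parental group 9. Fitted on the compared groups alone, 3 were called, all lower, where 221 of all 14687 genes were higher and 246 lower.

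**Figure D4:**
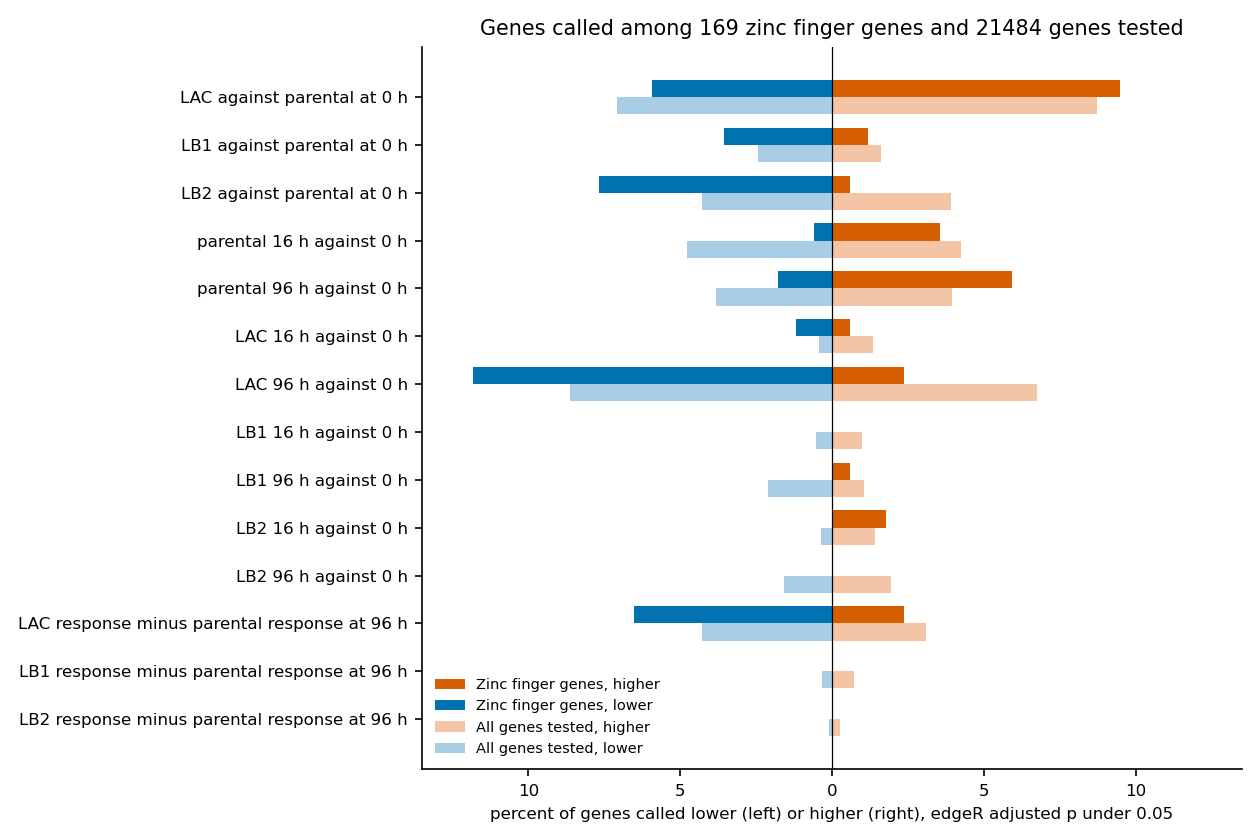
Percentage of genes called lower (left of 0) and higher (right of 0) at an edgeR adjusted p under 0.05 in each of 14 comparisons (rows), for the 169 tested zinc finger genes (dark bars) and all 21484 genes tested (pale bars). The largest share is that of genes lower in LAC at 96 h, 20 of 169.

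In the parental line the share of these genes called with auxin was under the background at 16 h and near it at 96 h. At 16 h 7 were called, 6 higher and 1 lower, where 9.01% of all genes were called (4.23% higher and 4.78% lower). At 96 h 13 were called, 10 higher and 3 lower, where 7.78% of all genes were (3.94% higher and 3.84% lower). The median change was 0.17 at 16 h and 0.18 at 96 h, with 118 of 169 genes above 0 at each time, while the median of all genes was -0.04 and -0.03. With DESeq2's size factors the median of all genes moved to -0.14 at 16 h and that of the 169 to 0.07, and the split at 96 h was 6 higher and 4 lower. Over all genes that split was 627 higher and 1049 lower. At 16 h 3 genes were called without replicate 3 of the parental group at 0 h or replicate 1 at 16 h, 4 without replicate 4 at 16 h, and 13 without replicate 2 at 0 h. At 96 h 4 were called without replicate 1 at 0 h, 7 without replicate 3 at 0 h, and 6 without replicate 4 at 0 h or replicate 3 or 4 at 96 h. Without the libraries under 5000000 counts 15 and 22 were called. Over all 22423 genes 1643 were then higher and 1111 lower at 16 h, and 1631 and 982 at 96 h.

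ZNF573, in C6, rose in the parental line from 5.12, 5.28, 3.77 and 4.11 CPM to 9.10, 7.33, 8.34 and 6.33 at 16 h, with no overlap (log2 change of 0.74 ± 0.21, edgeR adjusted p = 0.0212). ZNF671 fell from 3.29, 4.29, 5.92 and 3.14 CPM to 1.36, 1.70, 2.93 and 0.147, also with no overlap (-1.42 ± 0.41, adjusted p = 0.0207). At 96 h ZNF132 rose from 0.244, 0.660, 0 and 1.21 CPM to 1.47, 0.798, 3.57 and 2.30 (1.95 ± 0.51, adjusted p = 0.0123). These are few counts, and the ZNF132 groups overlap. ZNF461 fell from 4.75, 1.4, 2.69 and 2.90 CPM to 1.31, 1.20, 0.713 and 1.01 with no overlap (-1.41 ± 0.41, adjusted p = 0.0254), a call lost under 5 of 15 alternatives. ZNF875 fell as well (-1.14). The calls of ZNF573, ZNF671 and ZNF132 were lost under 4, 3 and 3 of 15 alternatives.

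In LAC, 16 h of auxin gave 3 calls, 1 higher and 2 lower, where 1.78% of all genes were called (1.34% higher and 0.447% lower). ZNF763 fell from 4.86, 1.81, 2.06 and 2.56 CPM to 0.688, 0.774, 1.37 and 1.03, with no overlap (log2 change of -1.4 ± 0.37, edgeR adjusted p = 0.0367). Other annotation on its strand covers 44.5% of the exon bases of ZNF763, so its counts may not be fully separate. ZNF254 rose from 7.12, 24.4, 21.4 and 17.4 CPM to 28.5, 27.2, 33.0 and 36.8 (0.76 ± 0.21, adjusted p = 0.0413), all 4 above every untreated library. Without replicate 1 of LAC at 0 h the changes were -1.11 for ZNF763 (edgeR adjusted p = 0.249) and 0.58 for ZNF254 (edgeR adjusted p = 0.230). Leaving out any library of these groups but replicate 2 of LAC at 0 h left 0 calls, and without that library there were 26. DESeq2 called 11.

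At 96 h LAC showed 24 calls among the 169 genes, 4 higher and 20 lower, where 15.4% of all genes were called (6.74% higher and 8.64% lower). The median change was 0.04 over the 169 genes, 91 of them above 0, and 0.03 over all genes. Once trends with GC content and length were taken out of each library, the median of the 169 turned to -0.09, with 70 above 0, and that of all genes was -0.01. The lower genes were GC-rich: of the 85 genes at or above the median GC content of 44.7%, 4 were higher and 18 lower, and of the 84 genes below it none was higher and 2 were lower. After the trend was removed the counts were 4 higher and 9 lower above the median and 0 and 8 below it. As fitted, the Spearman correlation of change with GC content across the 169 genes was -0.42, a description over genes that share the same 8 libraries. Of the 24 genes, 12 were also called with the trend removed. When replicate 1 of LAC at 0 h was left out, 6 genes were called, 1 higher and 5 lower. There were 15 calls when replicate 2 of LAC at 96 h was left out. Without the libraries under 5000000 counts there were 14, where 1350 of all 22423 genes were higher and 1445 lower. The part of base composition in these calls was not tested.

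**Figure D5:**
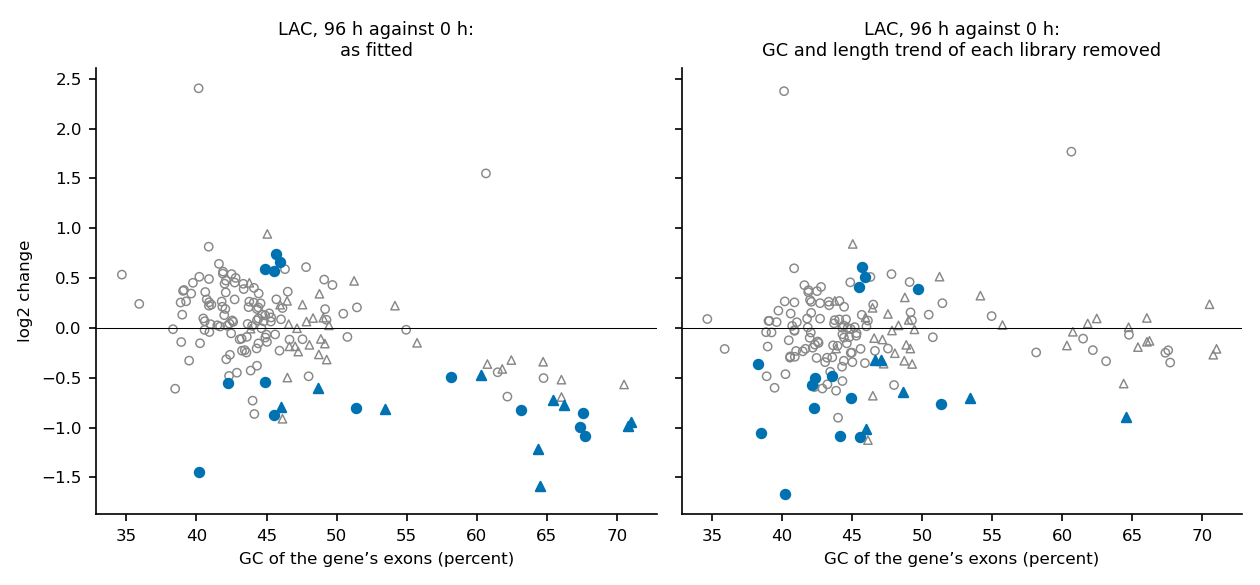
Log2 change in LAC from 0 to 96 h of auxin (vertical) against the GC content of each gene's exons (horizontal, percent) for the 169 zinc finger genes, as fitted (left) and with each library's GC and length trend removed (right). Filled symbols were called and triangles are C9 genes. On the left nearly all genes of the highest GC content lie below 0, and on the right they lie closer to it. The open circle at 2.40 is ZNF430, fitted from 3 counts.

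ZNF579, a gene of C9, went from 132, 20.5, 30.2 and 41.7 CPM in LAC at 0 h to 25.4, 12.1, 16.6 and 17.1 at 96 h (log2 change of -1.58 ± 0.39, edgeR adjusted p = 0.00393). Replicate 1 of LAC at 0 h lies far above the rest, and the groups overlap. Without it the change was -0.77 (adjusted p = 0.151). ZNF175, in C8, went the other way, from 2.27, 12.8, 11.9 and 8.97 CPM to 17.4, 16.4, 16.2 and 15.0, without overlap (0.74 ± 0.23, adjusted p = 0.0187), its lowest value being in that same library, without which the change was 0.54 (adjusted p = 0.0846). ZNF274, whose product binds the 3′ ends of zinc finger genes and brings SETDB1 there, fell with all 4 libraries on 1 side. It was at 20.4, 14.5, 16.5 and 15.3 CPM at 0 h and at 8.46, 8.95, 9.49 and 10.3 at 96 h (-0.82 ± 0.16, adjusted p = 0.000354), and it passed the test under all 15 alternatives tried. In the parental line it was at 14.1, 11.2, 12.9 and 10.4 CPM at 0 h and 10.6, 10.9, 14.4 and 12.2 at 96 h, overlapping (-0.03, adjusted p = 0.935). In LB1 and LB2 its change at 96 h was -0.36 in each, not called (edgeR adjusted p = 0.345 and 0.298). At 0 h ZNF274 in LAC lay 0.42 above the parental line, also not called (edgeR adjusted p = 0.0773).

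With auxin few of these genes were called in LB1 and LB2, where 1.5% to 3.55% of all genes were called. These groups hold some of the smallest libraries, with 1452968 counts in LB1 at 0 h and 479446 in LB2 at 16 h. Small libraries limit what a test can call. In LB1 at 16 h edgeR and DESeq2 called 0 of 169, 19 had an unadjusted p under 0.05, and 1.5% of all genes were called (0.987% higher and 0.517% lower). Without replicate 3 or 4 of LB1 at 16 h edgeR called 1 and 2. At 96 h 1 was called, where 3.17% of all genes were (1.05% higher and 2.12% lower): ZNF814 rose from 24.2, 15.3 and 23.6 CPM to 29.6, 35.9, 30.0 and 30.0, above all 3 untreated libraries (log2 change of 0.50 ± 0.14, edgeR adjusted p = 0.0314). The call was lost under 7 of 14 alternatives, among them those without any of the 3 LB1 libraries at 0 h or without replicate 2 at 96 h. In LB2 at 16 h 3 were called, all higher, where 1.81% of all genes were (1.43% higher and 0.377% lower). The largest of these, ZNF480, went from 8.87, 18.8, 20.7 and 16.3 CPM to 32.7, 37.8, 15.2 and 30.2 (0.89 ± 0.19, adjusted p = 0.00504), and the groups overlap through the smallest library. ZNF507 and ZNF805 also rose (0.52 and 0.66). Without replicate 4 of LB2 at 0 h or replicate 1 or 2 at 16 h 1 gene was called, and without replicate 2 at 0 h or replicate 4 at 16 h 5. In LB2 at 96 h edgeR and DESeq2 called 0, with 16 at an unadjusted p under 0.05, where 3.55% of all genes were called (1.95% higher and 1.6% lower). Without replicate 1 of LB2 at 0 h edgeR called 3.

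Whether a tagged line responded to 96 h of auxin differently from the parental line was tested as the difference of the 2 changes. For LAC 15 of 169 genes differed, 4 higher and 11 lower, where 7.4% of all genes did (3.1% higher and 4.3% lower). The median difference was -0.14 over the 169 genes and 0.06 over all genes. With DESeq2's size factors 4 were higher and 7 lower, with medians of -0.07 and 0.13, and the split of all genes turned from 665 higher and 924 lower to 902 higher and 675 lower. C9 had the lowest median of the 9 clusters, with 37 of 43 genes below 0, a median of -0.52, 1 called higher and 7 lower. With the GC and length trend removed its median was -0.36, with 1 higher and 2 lower. ZNF296 fell in LAC, to 6.82, 6.99, 4.68 and 6.02 CPM at 96 h, and stood at 4.09, 8.28, 7.85 and 6.80 in the parental line then, a difference in change of -1.56 ± 0.41 (edgeR adjusted p = 0.0175). For ZNF296 and C9, the higher level in LAC at 0 h and the lower response rest on the same LAC libraries at 0 h. They are therefore not separate evidence. ZNF461 was at 0.971, 1.70, 1.59 and 1.21 CPM in LAC at 0 h and 1.82, 2.35, 1.85 and 1.32 at 96 h, against its fall in the parental line (1.77 ± 0.56, adjusted p = 0.0435), a call lost under 16 of 23 alternatives. Without replicate 1 of LAC at 0 h its difference was 1.66 (edgeR adjusted p = 0.0696). ZNF274 differed by -0.78 ± 0.23 (adjusted p = 0.0297), a call lost under 9 of 23 alternatives, among them the one without replicate 1 of LAC at 0 h (adjusted p = 0.0528). Leaving out replicate 2 or 3 of LAC at 96 h gave 7 calls, leaving out replicate 1 of untreated LAC gave 9 and leaving out its replicate 2 gave 24. There were 8 calls when replicate 4 of the parental group at 0 h or its replicate 2 at 96 h was left out. For LB1 edgeR called 0 of 169 (18 at an unadjusted p under 0.05, DESeq2 2), where 1.04% of all genes differed (0.726% higher and 0.317% lower). Over all genes DESeq2 called 380 higher and 98 lower. Without replicate 2 of the parental group at 0 h or its replicate 1 at 96 h edgeR called 1, and without replicate 1 of LB1 at 0 h or replicate 4 at 96 h 2. For LB2 both tools called 0 (15 at an unadjusted p under 0.05), where 0.368% of all genes differed (0.27% higher and 0.0977% lower).

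Transcripts for the KRAB corepressor and for heterochromatin proteins were followed in a list of 29 genes, all tested, that holds ZNF274 as well. In LAC at 0 h 9 were higher and 1 lower than parental (edgeR quasi-likelihood test), where 8.71% of all genes were higher and 7.08% lower. TRIM28, the corepressor itself and a gene of chromosome 19, was at 1275 ± 341 CPM (SD, n = 4) there and at 739 ± 53.7 (n = 4) in the parental line (log2 difference of 0.79, adjusted p = 0.00178). WIZ, a zinc finger partner of the H3K9 methyltransferases EHMT1 and EHMT2 and likewise on chromosome 19, was at 172 ± 67.7 against 84.0 ± 8.88 CPM (1.02, adjusted p = 0.000116). SETDB1 was not called (-0.14, adjusted p = 0.550), and ATF7IP2, which binds SETDB1, was lower (-1.61). Without replicate 1 of LAC, 11 were higher and 1 lower, with TRIM28 at 0.62 (adjusted p = 0.00898) and WIZ at 0.75 (adjusted p = 0.000767). The LAC libraries left at 0 h had correlations with GC content of -0.18, 0.50 and 0.37. The part of base composition in the calls of this list was not tested. LB1 had no call in the list at 0 h, and LB2 had 3, all lower, among them CBX5, which encodes HP1 alpha, at 333 ± 40.2 CPM (n = 4) against 614 ± 125 (-0.88, adjusted p = 7.68e-05).

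In LAC at 96 h of auxin 1 gene of the list was higher and 7 were lower, with a median of -0.15, where 6.74% of all genes were higher and 8.64% lower. TRIM28 fell to 833 ± 97.4 CPM (n = 4; log2 change of -0.61, edgeR adjusted p = 0.0145) and WIZ to 95.6 ± 18.5 (-0.84, adjusted p = 0.00118). DNMT1 and UHRF1, which maintain DNA methylation, fell by 0.48 and 0.50, and the chromatin remodeller ATRX rose by 0.43. Without replicate 1 of LAC at 0 h none was higher and 3 were lower, WIZ (-0.53, adjusted p = 0.0262) and DNMT1 (-0.44, adjusted p = 0.0221) among them, while TRIM28 was no longer called (-0.40, adjusted p = 0.144), nor were UHRF1 (-0.36, adjusted p = 0.155) and ATRX (0.33, adjusted p = 0.133). The response of TRIM28 differed from that of the parental line by -0.93 (adjusted p = 0.020), and in this difference 1 gene of the list was higher and 5 were lower. At 96 h TRIM28 was at 920 ± 167 CPM (n = 4) in the parental line. The higher levels of TRIM28 and WIZ in LAC at 0 h and their later falls rest on the same LAC libraries at 0 h. In the parental line 2 genes rose and 1 fell at each time. In LB1 1 rose at 16 h and none changed at 96 h, in LB2 1 rose at each time, and neither line's response differed from the parental one in any gene of the list (edgeR quasi-likelihood test).

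For comparison, of the 900 tested other genes of chromosome 19, 221 were higher and 30 lower in LAC at 0 h with a median of 0.35. At 96 h 16 of them were higher and 277 lower, with a median of -0.46. Of all genes tested, 8.71% were higher and 7.08% lower at 0 h, and 6.74% higher and 8.64% lower at 96 h. Of the 169 zinc finger genes of the chromosome, 16 were higher and 10 lower at 0 h, and 4 and 20 at 96 h. The zinc finger genes of chromosome 19 have a median GC content of 44.7%, against 60.3% for those other genes and 48.7% for all genes tested. Of the 226 tested zinc finger genes on other chromosomes, 38 were higher and 15 lower in LAC at 0 h, and 28 were higher and 19 lower at 96 h.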

How the data were processed

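RNA from 46 libraries of DLD-1 lines was made with a stranded total RNA kit after ribosomal depletion, per the labels' protocols. The authors deposited raw counts per gene. The submitters' processing notes name STAR 2.7.10a, SAMtools 1.10, featureCounts 1.6.4 and GRCh38, and the strand setting, the rule for multi-mapping reads and the annotation release are not given in the sources used here. Reads shared by related zinc finger genes may therefore be lost or split, and 202 of the 265 genes overlap another gene. On the same strand 105 share exon bases with another gene, and 26 share over 25% of theirs. Rows of 1 gene broken over 3 lines were left out. Symbols were found for 67.5% of genes. Gene types and GC content came from GENCODE 29, which holds 263 of the 265 genes. Symbols came from a separate list of gene names and promoters from RefSeq.

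All 46 libraries entered 1 edgeR 4.0.16 quasi-likelihood fit (R 4.3.3) with TMM scaling, filterByExpr and Benjamini-Hochberg adjustment over 21484 genes, and 14 comparisons were made. The 0 h libraries of a derived line enter its comparison with parental, its changes with auxin and its response difference. A shift in those libraries moves all of these. Fold intervals at 0 counts use 3 counts over the group as the floor. Replicates of a group differed by more than sampling noise in all 66 pairs tested. The genes named were those near-silent in a line, those called with the largest rise and fall in each comparison, the 5 highest per kb and ZNF274, and further genes were named as neighbours or examples after their values were seen. The members and gene lists were chosen with earlier results of these data known. The scripts were tested on simulated data. Alternatives were DESeq2 1.42.0, its size factors, no count filter, removal of GC and length trends, a replicate block, compared groups alone, libraries under 5000000 counts left out, other near-silent thresholds, and each replicate left out in turn. The corepressor list was also fitted without replicate 1 of LAC at 0 h, a choice made after seeing the data.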

Additional observations from a re-analysis of the deposited data

Results flagged for a closer look

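Of 49 groups of 4 libraries checked for the named genes, 2 held a library far from the other 3, where chance flags about 1 group in 20. ZNF235 was at 1.45 CPM in replicate 4 of the parental line at 0 h, with the others between 2.925 and 3.219. ZNF814 was at 35.87 CPM in replicate 2 of LB1 at 96 h, with the others between 29.57 and 30.01.

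The response to 96 h of auxin differed between LAC and the parental line for the named genes ZNF461, with a log2 difference of 1.767 (edgeR adjusted p = 0.0435), and ZNF296, with one of -1.556 (edgeR adjusted p = 0.0175).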

How the results depend on the processing

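Of the near-silent cases, 7 of 8 passed the test at 0 h, and 7 or 8 did under each alternative fit, 6 to 8 with 1 library left out, 10 at a threshold of 10% of parental and 5 at 2%. No named gene called by a test changed direction. For LB1 at 96 h the main fit called 1 gene higher and 0 lower, whereas without libraries under 5000000 counts 0 were higher and 1 lower. Medians of the 169 genes near 0 did change sign: with GC and length trends removed that of LAC at 96 h went from 0.04 to -0.09, that of LAC at 16 h from 0.05 to -0.07 and that of LB2 at 16 h from 0.08 to -0.01, and with DESeq2's size factors both at 16 h were -0.02. With trends removed the medians of LB2 at 0 and 96 h turned from -0.01 and 0.01 to 0.02 and -0.01, and without the small libraries that at 0 h was 0.03. The counts of genes called among the 169 moved more, and the cause was not tested. With the compared groups alone they were 14 for LAC and 3 for LB2 at 0 h, 16 for parental at 16 h, 0 for LAC at 16 h, 3 for LAC at 96 h, 3 for LB1 at 96 h, 0 for LB2 at 16 h and 1 for the LB1 response difference. Without a count filter they were 8 for LB2 at 0 h, 7 for parental at 96 h, 6 for LAC at 16 h, 1 for LB1 at 16 h and 2 for LB2 at 96 h. With GC and length trends removed they were 15 and 23 for parental at 16 and 96 h, 1 and 4 for LB1, 3 for LB2 at 96 h and 2 for the LB1 response difference. Without libraries under 5000000 counts they were 15 and 22 for parental, 0 and 14 for LAC at 16 and 96 h, 4 for LB1 at 16 h and 4 for LB2 at 96 h. DESeq2's size factors gave 5 for LAC at 16 h and 2 for the LB1 response difference, and the DESeq2 test gave 11, 2 for LB1 at 96 h and 2 for that difference. Leaving out 1 library gave 23 to 35 for LAC, 5 to 10 for LB1 and 9 to 22 for LB2 at 0 h. It gave 3 to 13 and 4 to 17 for parental at 16 and 96 h, 0 to 26 and 6 to 36 for LAC, 0 to 2 and 0 to 1 for LB1, and 1 to 5 and 0 to 3 for LB2. The response differences ranged from 7 to 24 for LAC, 0 to 2 for LB1 and 0 to 0 for LB2. Counts over all genes moved as well. With the compared groups alone 610 of 14542 genes were higher and 707 lower for LAC at 0 h, and 221 and 246 of 14687 for LB2. For parental at 16 h they were 1553 and 1713 of 14521, and for LAC at 96 h 474 and 593 of 17166. With trends removed they were 1536 and 1448 of 21484 for parental at 16 h. Without the small libraries they were 1643 and 1111 of 22423 there.

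The replicate numbers showed no clear pairing over the 4 lines: of 44 same-numbered pairs 13 had a correlation of deviations over 0.1, with a range of -0.43 to 0.57. In LAC the correlations leaned positive, from -0.01 to 0.57. With the replicate block 2 genes were called for LB1 at 16 h and 0 at 96 h, 25 for LAC at 0 h and 25 at 96 h. Depth limits the low genes: in the library of 479446 counts 3 counts stand for 6.26 CPM, so a count of 0 there does not separate the parental level of most near-silent genes from none.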

Other observations

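The first 12 genes of C9 with at least 0.5 CPM in the parental line, from ZNF628 to ZNF805, were picked out after their values were seen and were given no test. With auxin all 12 lay below the parental level in LB2, at 51.8% to 82.2% with a median of 69.0%. In LB1 11 of 12 lay below it, at 75.9% to 101% with a median of 86.6%, and in LAC 9 of 12, at 76.9% to 118% with a median of 86.0%. Their GC content ran from 46.6% to 71.0% with a median of 65.0%, above that of the family, and its part in these values was not tested.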
